A study of Mus musculus with 6 samples.

Results

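The genes described here are the 43 genes that build, load and drive the DNA replication machinery, taken by symbol from the 44788 genes of a count table of whole mouse ovaries. The list was proposed with results of the comparison between the genotypes in view, so the members' values in that comparison are a description and no test was run on the set. All 43 were found in the table under their current symbol, and all 43 passed the filter on low counts. The series compared 3 Bnc1+/+ (wild type) mice, replicates 1, 4 and 7, with 3 Bnc1tr/tr mice, replicates 1, 2 and 3, all of strain C57BL/6 J and 8 weeks old. Bnc1 encodes the zinc finger protein basonuclin 1, and the tr allele is a germline deletion of a few bases that shifts the reading frame and leads to a premature stop codon in every cell that uses the gene. Mice of both genotypes came from matings of Bnc1+/tr parents, and no treatment was listed. Values for the 6 ovaries are given in that replicate order throughout, wild type first.

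A cell prepares to copy its DNA by loading a ring-shaped helicase onto origins, which are first marked by the origin recognition complex and then licensed by Cdc6 and Cdt1. In S phase a kinase fires the origin, Cdc45 and the GINS complex turn the ring into the active CMG helicase, and primase and polymerases copy both strands with the help of a sliding clamp. In the adult ovary the cells that divide most are the granulosa cells of growing follicles, whereas oocytes rest in meiotic prophase and the luteal cells of the corpus luteum have mostly left the cell cycle. Many replication genes are known targets of E2F transcription factors, which act at the passage from G1 into S phase. RNA from a whole ovary mixes all of these cells, so that more cells of a type and more RNA per cell cannot be told apart.

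Promoter sequences are shown because the members were described as a group. The choice did not use their letters, but it was made by function, and many replication genes are known E2F targets. The share of members with an E2F pattern is therefore not independent of the choice. RefSeq promoter windows of 300 bases (250 bases before and 50 from the annotated start site, build GRCm38.p6) were matched by symbol for 35 of the 43 genes. The genes not matched were Mcm4, Rfc2, Prim2, Gins4, Gins2, Gmnn, Pole and Gins1. Variants of the E2F consensus were written out as the octamers TTTCCCGC, TTTCGCGC, TTTGCCGC and TTTGGCGC, and both strands were searched. At least 1 octamer stood in the windows of 15 of the 35 genes (42.9%), compared with 704 of 27025 genes with a window (2.6%) and 512 of 11796 genes that were both tested and had a window (4.34%). The median GC content of the windows was 62.3% for the members, 52.7% for all genes and 60.0% for the genes tested, so that base composition differed along with the octamers, most of all from the windows of all genes. These matches are letters in a window and not measured binding sites, and a window without one says nothing about E2F. Mcm5 and Mcm6 each held a pair of octamers that overlap by 4 bases and read in opposite directions. Their log2 fold changes (Bnc1tr/tr over Bnc1+/+) were 0.42 and 0.39. Mcm3 and Mcm7 also held octamers and were at 0.29 and 0.17, while Mcm2, with a window and no octamer, was at 0.30. A link between octamers and fold changes was not tested. The 250 bases before the start sites of Mcm5 and Mcm6 lie at chr8:75109259-75109508 (plus strand) and chr1:128359706-128359955 (minus strand). They are printed 5′ to 3′ on the strand of the gene, with octamers in capitals.
Mcm5: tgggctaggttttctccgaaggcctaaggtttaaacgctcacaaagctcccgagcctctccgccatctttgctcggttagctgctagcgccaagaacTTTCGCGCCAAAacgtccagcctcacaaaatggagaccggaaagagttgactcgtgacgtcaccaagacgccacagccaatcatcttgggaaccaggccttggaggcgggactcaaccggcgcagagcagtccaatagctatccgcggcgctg
Mcm6: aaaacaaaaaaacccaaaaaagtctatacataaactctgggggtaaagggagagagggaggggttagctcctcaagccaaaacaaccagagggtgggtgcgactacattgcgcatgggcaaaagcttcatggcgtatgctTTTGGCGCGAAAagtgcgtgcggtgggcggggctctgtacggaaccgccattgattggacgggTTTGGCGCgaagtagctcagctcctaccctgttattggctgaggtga

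The other octamers sat at varied distances from the start site. Of the 21 matches, 12 began upstream of it, and their first bases lay between -165 and 39 bases from it. TTTCCCGC was matched 8 times, TTTGGCGC 7 times, TTTCGCGC 6 times and TTTGCCGC 0 times. Short stretches around the octamer are printed for Cdt1 (chr8:122568036-122568064) and Pold1 (chr7:44548766-44548787), the members past the threshold below, for the licensing factor Cdc6 (chr11:98908002-98908031), for the largest origin recognition subunit gene Orc1 (chr4:108579416-108579445), for the helicase gene Mcm7 (chr5:138172030-138172059), and for Lig1 (chr7:13278841-13278870), which seals the finished strand. The capitals mark the octamer in either orientation.
Cdt1: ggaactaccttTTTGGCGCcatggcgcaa
Pold1: cgtatcttgtgGCGGGAAAagc
Cdc6: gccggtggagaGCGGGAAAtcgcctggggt
Orc1: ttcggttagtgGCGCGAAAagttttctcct
Mcm7: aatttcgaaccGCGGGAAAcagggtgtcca
Lig1: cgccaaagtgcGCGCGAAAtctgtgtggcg

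**Figure D1:**
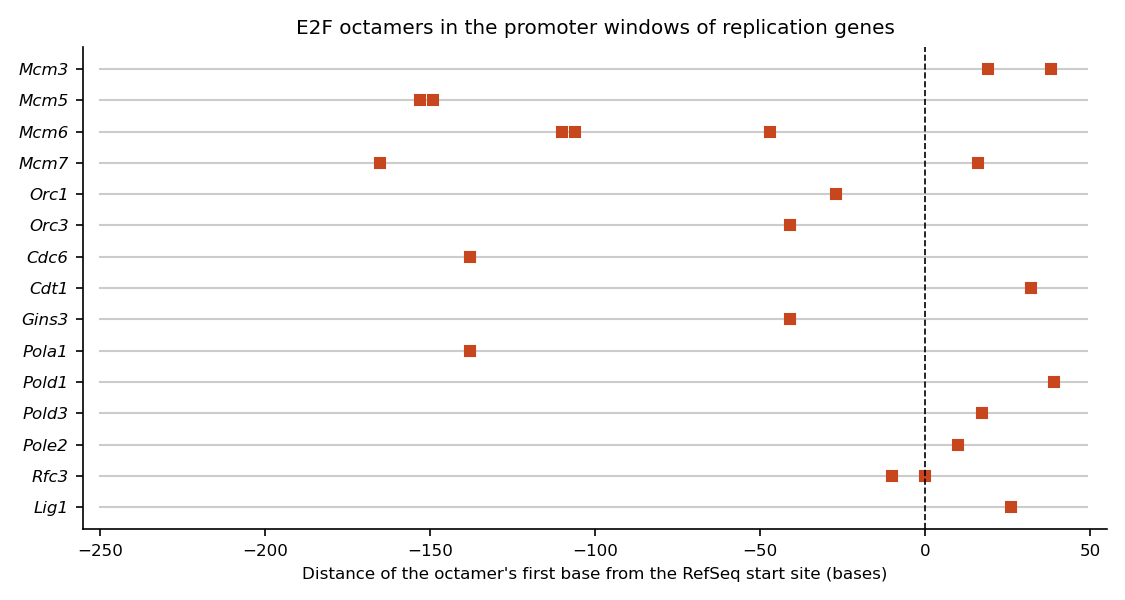
Position of each E2F octamer in the 15 replication genes that held at least 1, with the horizontal axis giving the distance in bases of the octamer's first base from the RefSeq start site (dashed line) and 1 square per match. The 21 matches are spread from -165 to 39 bases, and Mcm6 has the most with 3.

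Library totals ranged from 25247770 to 34406296 counts, and the 43 genes together took 43574 to 63601 of them. The lowest count of any member in any ovary was 138, for Orc1. Bnc1 itself was measured at 13.9, 13.4 and 13.1 CPM (counts per 1000000 counts of the library, with library totals adjusted by TMM factors, which correct for differences in make-up) in Bnc1+/+ and at 18.7, 13.7 and 11.5 CPM in Bnc1tr/tr ovaries. The genotypes overlapped in Bnc1, and a gene total does not show whether the transcript carries the deletion, so it does not check the labels. Some ovaries stood apart. The ribosomal RNA gene Rn18s-rs5 took 3.47% of the counts in Bnc1+/+ replicate 1, compared with 0.463% to 1.37% in the other ovaries, and the 10 most abundant genes took 8.11% there, compared with 4.51% to 6.25%. Genes of the oviduct and of cilia summed to 153 CPM in Bnc1+/+ replicate 1 and to 532 CPM in Bnc1tr/tr replicate 3, compared with 27.9 to 44.5 CPM in the other ovaries, and values without both ovaries are given below.

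The replication genes were modestly higher in Bnc1tr/tr ovaries. Their summed level was 1834, 1762 and 1501 CPM in Bnc1+/+ and 2095, 1867 and 2239 CPM in Bnc1tr/tr ovaries, or 0.176%, 0.170% and 0.147% of all counts against 0.217%, 0.192% and 0.233%. The 2 genotypes did not overlap, although Bnc1tr/tr replicate 2 lay close to Bnc1+/+ replicate 1. The means were 1699 ± 175 CPM and 2067 ± 187 CPM (SD, n = 3), a ratio of 1.22. The log2 fold change (Bnc1tr/tr over Bnc1+/+) was positive for 41 of the 43 genes and negative for Orc4 and Rfc2 (both positive when only library size was used for scaling), with a median of 0.31 and a range of -0.06 to 0.60. Over all 19423 genes tested the median was 0.02, and 52.6% were positive. In 23 of the 43 genes every Bnc1tr/tr ovary lay above every Bnc1+/+ ovary, and in 0 genes below. Of all genes tested, 15% lay wholly above and 15.8% wholly below, and nothing is read from this count because the genes were proposed with this contrast in view.

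With edgeR's quasi-likelihood fit over all genes, 2 of the 43 genes, Cdt1 and Pold1, were past the threshold (Benjamini-Hochberg adjusted p under 0.05), both higher. Of all genes tested 7.06% were past it, 2.88% higher and 4.19% lower, and this count too is given as a description only. With scaling by library size only, 8 members and 8.9% of all genes were past it, and 35.6% of all genes past it were lower, compared with 59.3% under TMM. The count of members depended on single ovaries: 0 members were past the threshold without Bnc1+/+ replicate 1, 4 or 7 or without Bnc1tr/tr replicate 3, 1 (Cdt1) without Bnc1tr/tr replicate 1, and 4 (Cdt1, Pold1, Pold2 and Lig1) without Bnc1tr/tr replicate 2. The share of all genes past it was lower in these fits too, at 3.93%, 1.6% and 2.59% without Bnc1+/+ replicates 1, 4 and 7 and at 4.89%, 6.4% and 3.18% without Bnc1tr/tr replicates 1, 2 and 3. The median log2 fold change stayed positive when any ovary was left out, from 0.22 without Bnc1+/+ replicate 7 to 0.39 without Bnc1tr/tr replicate 2. Without both ovaries with high oviduct genes it was 0.28, with 0 members past the threshold and 29 of 43 not overlapping, in a fit where 1.55% of all genes were past it and 48.8% did not overlap. The p-values behind these counts measure only the spread between these ovaries.

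**Figure D2:**
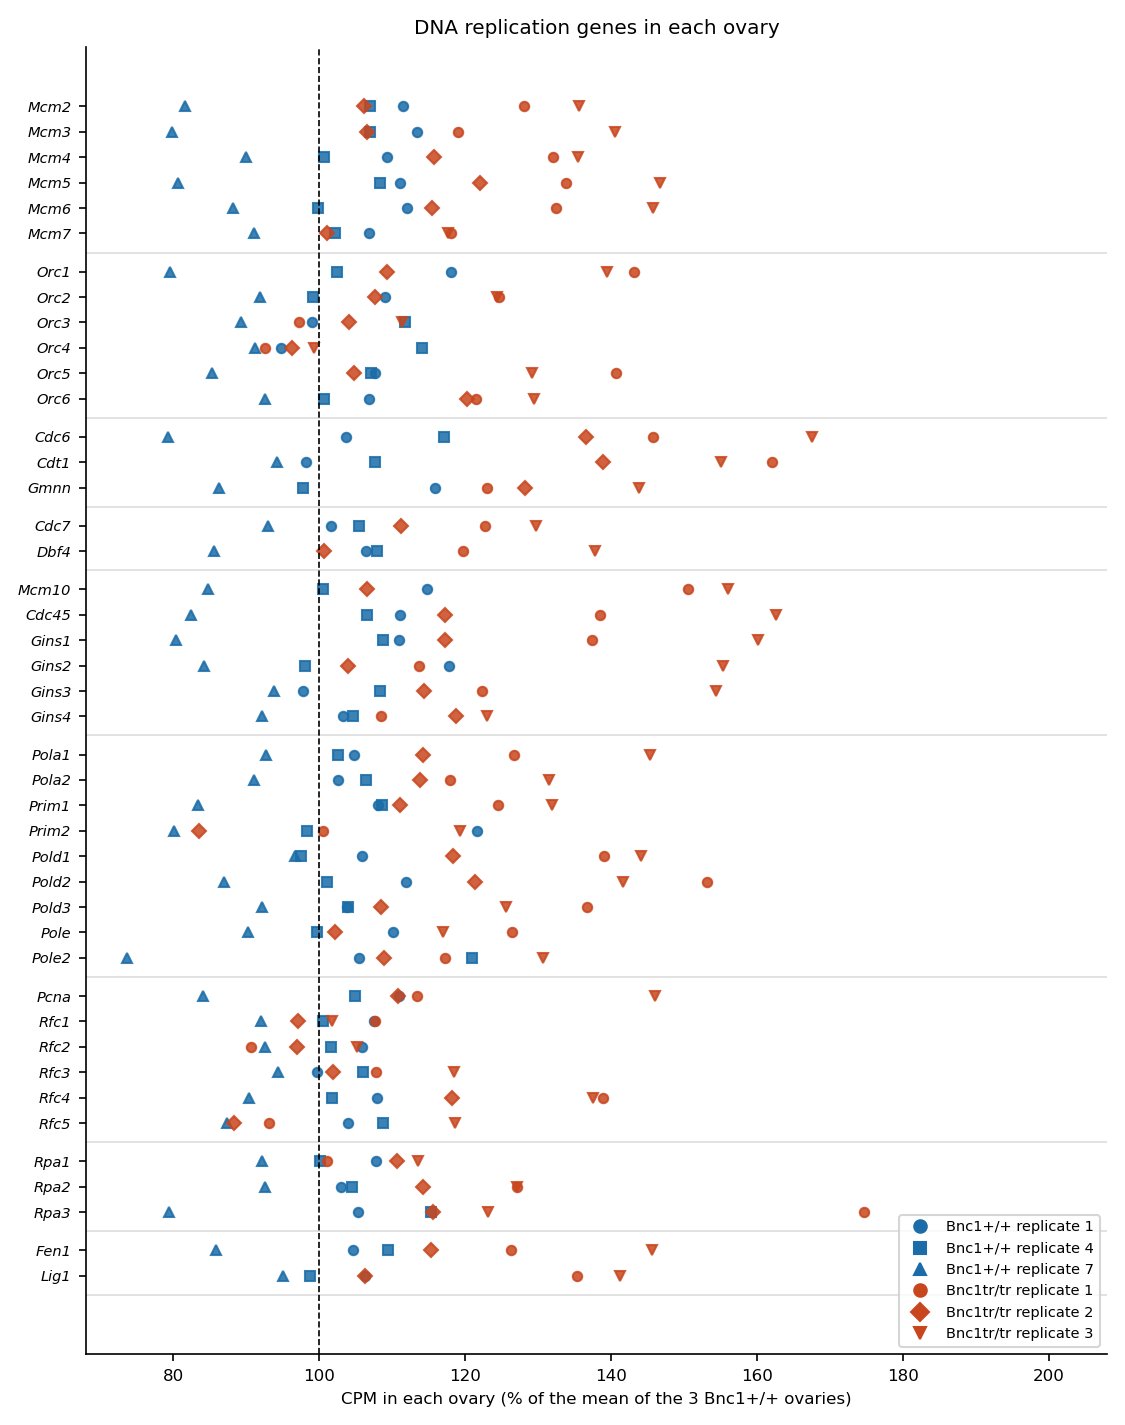
CPM of each of the 43 replication genes in each ovary, as a percentage of the mean of the 3 Bnc1+/+ ovaries (dashed line at 100), with blue symbols for Bnc1+/+, red symbols for Bnc1tr/tr and 1 symbol shape per ovary, grouped by role. Bnc1+/+ replicate 7 (blue triangles) is the lowest of the 6 ovaries for 42 of the 43 genes, and Bnc1tr/tr replicate 3 (red triangles) is the highest for 27.

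The licensing factors and their inhibitor had the highest median of any role, a median log2 fold change of 0.58. Cdt1, which brings the helicase to the origin, is a gene at chr8:122568015-122573554 on the plus strand (GRCm38). It was measured at 20.5, 22.4 and 19.6 CPM in Bnc1+/+ and at 33.8, 29.0 and 32.3 CPM in Bnc1tr/tr ovaries, a log2 fold change of 0.60 (SE 0.10). The lowest mutant ovary lay clearly above the highest wild-type ovary. Without single ovaries its log2 fold change ran from 0.55 to 0.66. Cdc6, the ATPase that loads the helicase together with Cdt1, was at 15.4, 17.4 and 11.8 CPM against 21.7, 20.3 and 24.9 CPM (0.58, SE 0.16). Gmnn encodes geminin, which binds and blocks Cdt1, and it was at 14.7, 12.4 and 10.9 CPM against 15.6, 16.2 and 18.2 CPM (0.40, SE 0.14). In all 3 of these genes the genotypes did not overlap, and the inhibitor lay on the same side as the factor that it blocks.

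The helicase ring is made of the products of Mcm2 to Mcm7, and its genes had a median log2 fold change of 0.33. Mcm5 was at 94.7, 92.4 and 68.8 CPM in Bnc1+/+ and at 114, 104 and 125 CPM in Bnc1tr/tr ovaries (0.42, SE 0.14). For Mcm6 the values were 131, 116 and 103 CPM against 155, 135 and 170.2 CPM (0.39, SE 0.12). Mcm4 was measured at 54.7, 50.3 and 45.0 CPM and at 66.0, 57.9 and 67.7 CPM (0.35, SE 0.10). These 3 genes did not overlap between genotypes, whereas the other three did, in each case because Bnc1tr/tr replicate 2 lay below at least 1 wild-type ovary. Mcm2 was at 107, 103 and 78.1 CPM against 123, 102 and 129.9 CPM (0.30, SE 0.14). Mcm3 was at 89.5, 84.4 and 63.0 CPM against 93.9, 84.1 and 111 CPM (0.29, SE 0.15). Mcm7, at 110.2, 105 and 94.0 CPM against 122, 104 and 122 CPM, had the smallest difference of the ring (0.17, SE 0.10).

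Because the ring holds each subunit in equal number, the make-up of its transcripts was compared per length within each ovary. Per kilobase of the longest principal transcript, Mcm6 had the highest level of the ring in Bnc1+/+ ovaries, 40.1 ± 4.77 CPM per kb (SD, n = 3), and Mcm4 the lowest, 13.9 ± 1.35 CPM per kb. As a share of the ring's summed CPM per kb, Mcm7 took 19.9% to 22.0% in Bnc1+/+ and 17.8% to 19.2% in Bnc1tr/tr ovaries, which did not overlap. Mcm5 took 14.1% to 15.6% and 15.8% to 16.5%, and Mcm6 took 22.8% to 24.6% and 24.9% to 25.4%, again without overlap but with narrow gaps. The shares of Mcm2, Mcm3 and Mcm4 overlapped. Mcm7 shares 321 exon bases with Ap4m1 on the opposite strand and hosts the microRNA genes Mir25 and Mir93, and whether the counting used strand is not given in the sources used here.

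The origin recognition complex was uneven, with a median log2 fold change of 0.28. Orc1, a subunit whose protein level changes over the cell cycle, was at 7.06, 6.13 and 4.75 CPM against 8.56, 6.54 and 8.34 CPM (0.39, SE 0.20), and the genotypes overlapped. Orc4, another subunit of the ring that holds the DNA, was at 15.9, 19.1 and 15.3 CPM against 15.5, 16.2 and 16.6 CPM (-0.06, SE 0.12), the lowest log2 fold change of all members. Orc6 was the only subunit gene without overlap, at 24.4, 22.9 and 21.1 CPM against 27.7, 27.4 and 29.5 CPM (0.31, SE 0.09). It also had the smallest spread within genotypes of all 43 genes, an SD of 0.08 on the log2 scale. Orc2 and Orc5 differed by 0.25 (SE 0.11) and 0.32 (SE 0.14) with overlap, and Orc3 by 0.06 (SE 0.11). Orc2 shares 1150 of its 3857 exon bases with Nif3l1 on the opposite strand.

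Origins are fired by the kinase Cdc7 with its activating subunit Dbf4. Cdc7 was at 11.0, 11.4 and 10.1 CPM against 13.3, 12.1 and 14.1 CPM (0.28, SE 0.12), without overlap. Dbf4 was at 21.2, 21.5 and 17.1 CPM against 23.8, 20.0 and 27.5 CPM (0.26, SE 0.15), with Bnc1tr/tr replicate 2 inside the wild-type range.

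The genes that turn the loaded ring into the CMG helicase had a median log2 fold change of 0.42. Cdc45 was at 22.9, 21.9 and 17.0 CPM against 28.5, 24.1 and 33.5 CPM (0.48, SE 0.16), without overlap. Mcm10, which helps to activate the helicase, was at 22.5, 19.7 and 16.6 CPM against 29.5, 20.9 and 30.6 CPM (0.46, SE 0.17), with overlap through Bnc1tr/tr replicate 2. The 4 GINS subunits act as 1 complex, and their log2 fold changes ran from 0.22 (SE 0.09) for Gins4 through 0.32 (SE 0.18) for Gins2 and 0.38 (SE 0.16) for Gins3 to 0.47 (SE 0.18) for Gins1. Gins4 was at 40.1, 40.6 and 35.8 CPM against 42.1, 46.1 and 47.7 CPM. Gins2, the only GINS gene that overlapped, was at 28.2, 23.5 and 20.2 CPM against 27.3, 24.9 and 37.2 CPM. Of its 4097 exon bases 2758 are shared with Gse1 on the opposite strand, so its counts are uncertain.

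Among the 9 primase and polymerase genes the median log2 fold change was 0.29, and the highest values were those of Pold2 and Pold1, subunit genes of polymerase delta, which copies the lagging strand. Pold1, the catalytic subunit gene at chr7:44532746-44548849 on the minus strand, was at 72.2, 66.4 and 65.9 CPM in Bnc1+/+ and at 94.8, 80.6 and 98.2 CPM in Bnc1tr/tr ovaries (0.42, SE 0.10). Pold2 was at 76.6, 69.2 and 59.5 CPM against 105, 83.1 and 97.0 CPM (0.47, SE 0.12), a higher fold change with more spread between ovaries. Pold3 was at 49.2, 49.3 and 43.7 CPM against 64.8, 51.4 and 59.6 CPM (0.31, SE 0.11). None of these 3 genes overlapped. For polymerase alpha and primase, which start each strand, Pola1 (0.36, SE 0.12), Pola2 (0.28, SE 0.10) and Prim1 (0.29, SE 0.14) did not overlap, while Prim2 did, at 29.3, 23.6 and 19.3 CPM against 24.2, 20.1 and 28.7 CPM (0.02, SE 0.18). The leading strand polymerase genes Pole (0.20, SE 0.12) and Pole2 (0.25, SE 0.19) overlapped.

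The sliding clamp and its loader had the lowest median of any role, 0.08. Rfc4 was the exception in the loader, at 11.0, 10.4 and 9.20 CPM against 14.1, 12.0 and 14.0 CPM (0.40, SE 0.13), without overlap. Rfc5 was at 28.3, 29.6 and 23.7 CPM against 25.3, 24.0 and 32.2 CPM, the smallest absolute difference of all members, and the group means were both 27.2 CPM. Rfc1 (0.03, SE 0.09), Rfc2 (-0.03, SE 0.09) and Rfc3 (0.13, SE 0.10) overlapped as well. Whether the fold changes of the loader subunits differ from each other was not tested. On the opposite strand, Rfc4 shares 194 of its 1533 exon bases with Eif4a2, Rfc2 952 of 6303 with Lat2, and Rfc5 499 of 4669 with Wsb2. Loaders with other large subunits also use Rfc2 to Rfc5, in checkpoint and cohesion pathways. Pcna, the clamp itself, was at 59.6, 56.4 and 45.2 CPM against 60.9, 59.5 and 78.4 CPM (0.30, SE 0.14), with overlap between Bnc1tr/tr replicate 2 and Bnc1+/+ replicate 1. Pcna has a processed copy, Pcna-ps2, listed at 31.0, 41.1 and 29.8 CPM against 43.4, 41.1 and 46.6 CPM, and reads of both may have been divided between them. Summed, they were at 90.6, 97.5 and 74.9 CPM against 104, 101 and 125 CPM, and the genotypes did not overlap.

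Replication protein A coats the single strands opened by the helicase. Rpa2 was at 51.0, 51.7 and 45.8 CPM against 62.9, 56.6 and 62.9 CPM (0.30, SE 0.09), without overlap and with little spread. Rpa3 was at 13.8, 15.1 and 10.4 CPM against 22.9, 15.2 and 16.2 CPM (0.46, SE 0.20). It had the largest spread within genotypes of all 43 genes, an SD of 0.30 on the log2 scale, and Bnc1tr/tr replicate 2 was barely above Bnc1+/+ replicate 4. Rpa1, the large subunit gene, was at 104, 96.4 and 88.8 CPM against 97.3, 107 and 109 CPM (0.12, SE 0.09) and overlapped.

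Fen1 and Lig1 trim and join the fragments of the lagging strand. Fen1 was at 41.3, 43.2 and 33.9 CPM against 49.8, 45.5 and 57.4 CPM (0.37, SE 0.13), and Lig1 at 67.3, 62.6 and 60.2 CPM against 85.7, 67.3 and 89.5 CPM (0.35, SE 0.12). Neither overlapped, although Lig1 in Bnc1tr/tr replicate 2 rounded to the same value as in Bnc1+/+ replicate 1. Of the 2422 exon bases of Fen1, 1909 are shared with Gm10143 on the opposite strand.

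**Figure D3:**
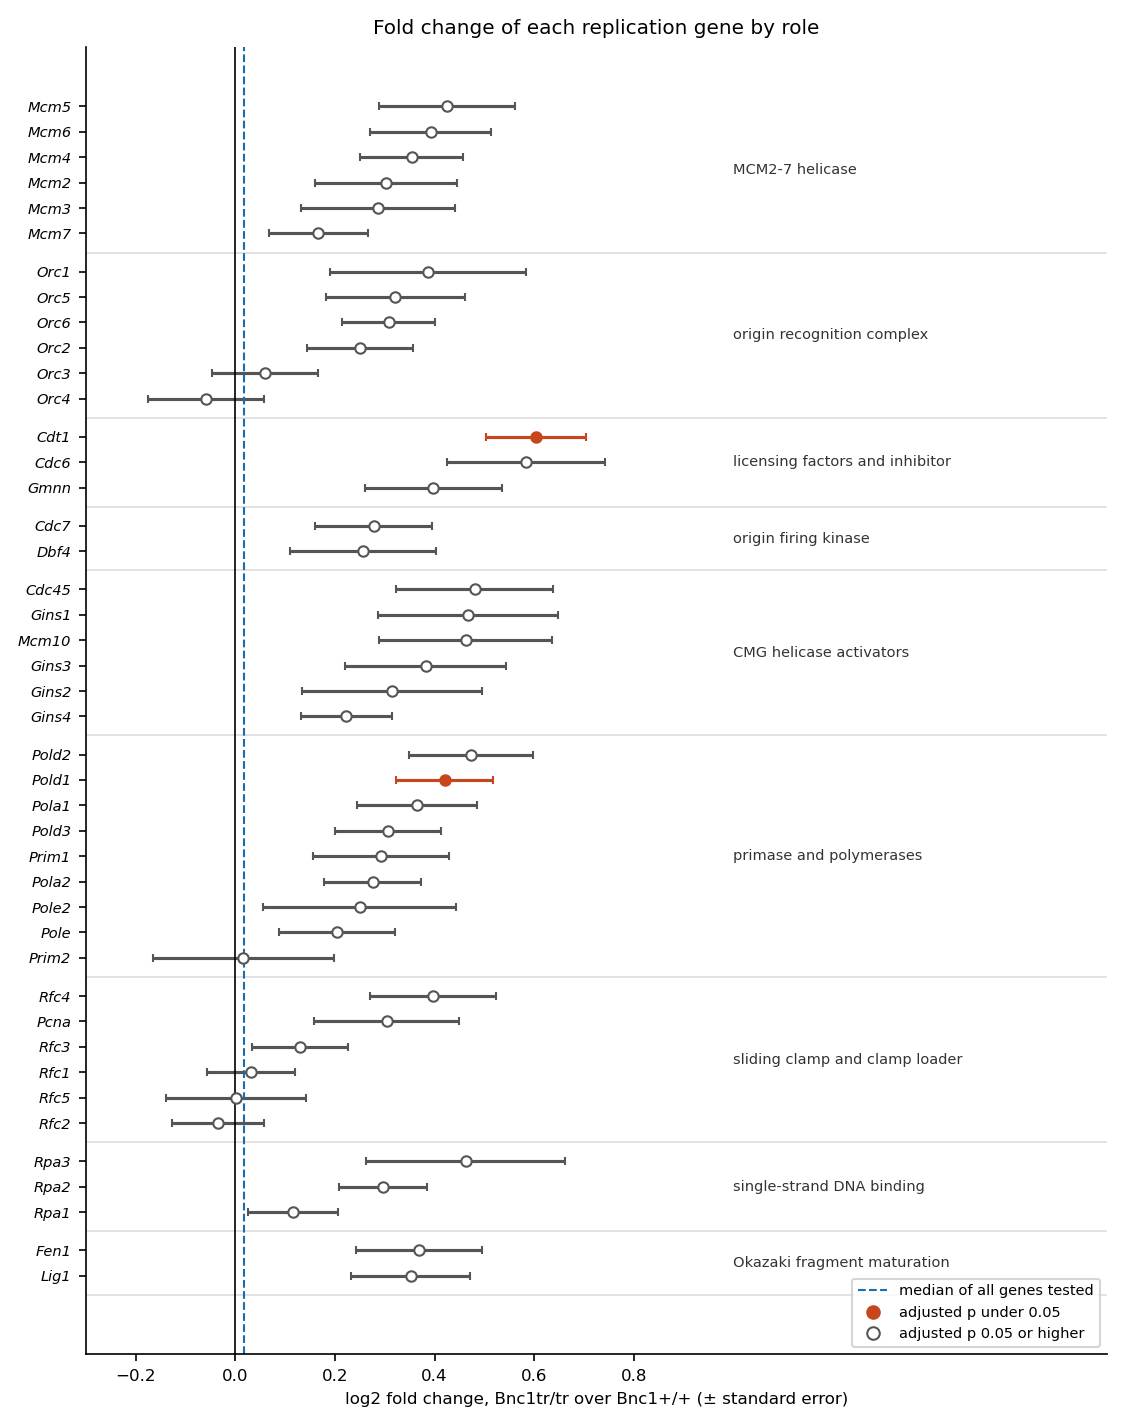
Log2 fold change of each of the 43 replication genes (Bnc1tr/tr over Bnc1+/+, 3 ovaries each) with its standard error from edgeR, ordered within each role, with filled red points for genes past the adjusted p threshold of 0.05 and the median of all genes tested as a dashed line. Cdt1 and Pold1 are the filled points, and the clamp loader genes Rfc1, Rfc2 and Rfc5 lie nearest to 0 together with Orc3, Orc4 and Prim2.

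The replication genes also moved together between ovaries of the same genotype, a comparison that the choice of genes did not use. In Bnc1+/+ replicate 7, 0 of the 43 genes lay above the mean log2 CPM of its own genotype, compared with 38 in replicate 1 and 37 in replicate 4. Among the mutants, 41 genes lay above their genotype's mean in replicate 3, 24 in replicate 1 and 3 in replicate 2. Over all genes tested, this share was between 48.3% and 52.3% in every ovary. The median deviation of the members was -0.16 on the log2 scale in Bnc1+/+ replicate 7 and -0.15 in Bnc1tr/tr replicate 2, and it was 0.11 in both Bnc1+/+ replicate 1 and Bnc1tr/tr replicate 3. The SD of the members' median log2 CPM between ovaries of a genotype was 0.15, beside the median difference between genotypes of 0.31. Single members varied about as much as other genes, with a median SD within genotypes of 0.17 against 0.19 for all genes tested.

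The ovaries contributed unequally to the difference between genotypes. Bnc1+/+ replicate 7 was the lowest of the 6 ovaries for 42 of the 43 genes, whereas 18.6% of all genes were lowest there. Bnc1tr/tr replicate 3 was the highest for 27 genes and Bnc1tr/tr replicate 1 for 12, against 16% and 24.9% of all genes. Taken 1 mutant ovary at a time, 38 genes in replicate 3, 35 in replicate 1 and 24 in replicate 2 lay above all 3 wild-type ovaries, compared with 34.4%, 36.3% and 31.9% of all genes tested. The mutant ovary nearest to wild type in these genes was thus Bnc1tr/tr replicate 2.

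Levels of the 43 genes per length spanned a wide range within the machinery. In Bnc1+/+ ovaries Pold2 was the highest at 41.6 ± 5.21 CPM per kb, followed by Mcm6 and by Pcna at 35.4 ± 4.99 CPM per kb, and Orc1 was the lowest at 1.98 ± 0.384 CPM per kb (SD, n = 3). In Bnc1tr/tr ovaries these levels were 57.7 ± 6.70 CPM per kb for Pold2, 43.7 ± 6.94 CPM per kb for Pcna and 2.59 ± 0.367 CPM per kb for Orc1. Subunits of the same complex did not stand at the same level: in Bnc1+/+ ovaries the level of Orc3 was 18.4 CPM per kb while those of Orc1 and Orc4 were 1.98 and 4.13 CPM per kb. Among the GINS genes, Gins4 was at 28.8 CPM per kb and Gins3 at 2.70 CPM per kb. In the order of levels over the 6 ovaries, the ranges of each gene and the next one overlapped throughout, so that no single step of the order exceeded the spread. Lengths are those of annotated transcripts and may differ from the isoforms present.

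**Figure D4:**
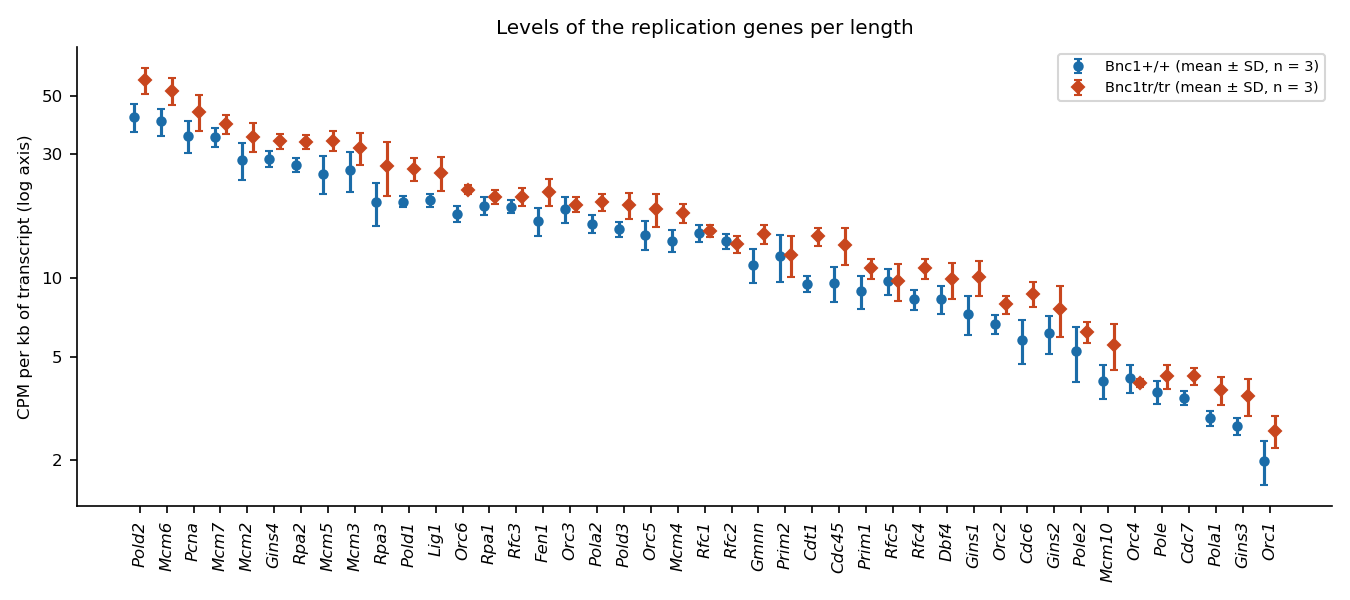
Level of each of the 43 replication genes in CPM per kb of transcript (log axis), as mean ± SD of 3 ovaries, blue circles for Bnc1+/+ and red diamonds for Bnc1tr/tr, ordered by the mean of all 6 ovaries. Pold2 and Mcm6 stand highest and Orc1 lowest, and the red points lie above the blue ones for all genes but Orc4 and Rfc2, which were positive with library size only, and Rfc5, which was at equal level.

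Around the members, single genes passed the test in small numbers. Of 25 other replication factors, 23 had a positive log2 fold change, with a median of 0.18, and 1 rose past the threshold and 0 fell. It was Rnaseh2c, a subunit of the enzyme that removes RNA from DNA, with a log2 fold change of 0.36 (SE 0.08, edgeR Benjamini-Hochberg adjusted p = 0.0452, higher in 3 of 3 mutant ovaries). It kept that call in 1 of the 6 fits that left out an ovary, the fit without Bnc1tr/tr replicate 1, and also lost it without the filter on low counts (edgeR adjusted p = 0.0588). The other subunit genes of this enzyme, Rnaseh2a (-0.40, SE 0.22) and Rnaseh2b (0.18, SE 0.11), did not pass, and Rnaseh2a lay in the other direction. The largest differences of this list were those of Ticrr (0.54, SE 0.17), which brings Cdc45 to origins, and Wdhd1 (0.47, SE 0.12), which links the helicase to polymerase alpha, and neither passed. The summed level of the 43 members relative to the sum of this list was 1.55 to 1.69 in Bnc1+/+ and 1.80 to 1.94 in Bnc1tr/tr ovaries.

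Replication also needs a supply of nucleotides. Of 14 genes of this supply, 11 were positive with a median log2 fold change of 0.15, 0 rose and 1 fell. The gene that fell was Nme1, a nucleoside diphosphate kinase, from 157, 178 and 142 CPM to 91.5, 105.9 and 113 CPM (log2 fold change -0.62, SE 0.12, edgeR adjusted p = 0.0227). Its call was lost without Bnc1+/+ replicate 1 (edgeR adjusted p = 0.0620) and without Bnc1+/+ replicate 4 (0.105). Impdh2, a guanine nucleotide synthesis enzyme, had a log2 fold change of 0.37 (SE 0.10) that did not pass. The summed level of the list was 692 to 820 CPM in Bnc1+/+ and 755 to 832 CPM in Bnc1tr/tr ovaries, which overlapped, and the members' sum relative to it was 2.17 to 2.24 and 2.47 to 2.69. This sum includes Nme1, with means of 159 and 103 CPM, so the ratio leans in part on that gene.

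Chromatin is rebuilt behind the fork, and 11 of 13 genes of this process were positive with a median log2 fold change of 0.37. Of these, 1 rose and 0 fell. Cdca7, which recruits a remodelling enzyme for DNA methylation, rose from 35.6, 37.7 and 31.1 CPM to 59.0, 44.3 and 52.1 CPM (log2 fold change 0.57, SE 0.13, edgeR adjusted p = 0.0380), and it kept the call only without Bnc1tr/tr replicate 2 among the 6 fits that left out an ovary. Tonsl, which binds newly made histones, had a log2 fold change of 0.50 (SE 0.13) and did not pass. Relative to the sum of this list, the members' sum was 1.85 to 1.97 in Bnc1+/+ and 1.86 to 2.05 in Bnc1tr/tr ovaries, which overlapped.

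The control of entry into S phase held the largest log2 fold changes of the 5 neighbouring lists. Of 31 genes of G1-S control, 1 rose and 1 fell, and the median log2 fold change was 0.17. The members' sum relative to that of this list was 0.578 to 0.717 in Bnc1+/+ and 0.750 to 0.852 in Bnc1tr/tr ovaries, without overlap. The sum of the list itself overlapped, at 2528 to 2597 CPM and 2489 to 2626 CPM. It leans on Ddb1 (means of 691 and 660 CPM) and Cdk4 (452 and 441 CPM), so the ratio says little about the other regulators. E2f2, an activating E2F transcription factor, rose from 15.4, 15.0 and 13.2 CPM in Bnc1+/+ to 29.2, 27.8 and 31.4 CPM in Bnc1tr/tr ovaries (log2 fold change 1.02, SE 0.10, edgeR adjusted p = 0.00269). Its mean was 2.03 times as high, with little spread, and it passed in all 6 fits that left out an ovary, with log2 fold changes of 0.95 to 1.06. Cdkn1b encodes p27, an inhibitor of the cyclin E kinase. It fell from 202, 212 and 221 CPM to 91.5, 131 and 104 CPM (log2 fold change -0.96, SE 0.13, edgeR adjusted p = 0.00714) and missed the threshold without Bnc1+/+ replicate 4 (edgeR adjusted p = 0.0522). Across all 5 of these neighbouring lists, mitosis included, 5 genes were past the threshold, but 2, 1 and 3 without Bnc1+/+ replicates 1, 4 and 7, and 10 and 3 without Bnc1tr/tr replicates 2 and 3. The lists had been chosen with earlier results of these data known.

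Genes of mitosis, the next step of division, were placed beside the members. All 19 had positive log2 fold changes with a median of 0.29, and 0 passed in edgeR in either direction, while 7 were higher at an unadjusted p under 0.05, DESeq2 called 2 higher and limma-voom 0. Their summed level was 800, 725 and 618 CPM in Bnc1+/+ and 891, 736 and 1040 CPM in Bnc1tr/tr ovaries, with Bnc1tr/tr replicate 2 inside the wild-type range. Divided by the mitosis sum, the members' sum came to 2.29, 2.43 and 2.43 for Bnc1+/+ ovaries and to 2.35, 2.54 and 2.15 for Bnc1tr/tr ovaries. The highest and the lowest of the 6 ratios both belonged to mutant ovaries, so that the genotypes overlapped. Bub1b (0.61, SE 0.16) and Ttk (0.53, SE 0.19), both kinases of the spindle checkpoint, had the largest differences of the mitosis list.

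Markers of the cell types of the ovary moved with genotype too, and their part in the values of the replication genes was not tested. Of 9 corpus luteum markers 8 fell (all but Akr1c18), and their sum was 23330 to 28047 CPM in Bnc1+/+ and 7332 to 12685 CPM in Bnc1tr/tr ovaries. Of 7 endothelium markers 5 fell (Pecam1, Cdh5, Tek, Kdr and Flt1), with sums of 603 to 756 CPM and 390.1 to 459 CPM. Of 12 granulosa cell markers 2 rose (Amh and Amhr2), with sums of 4169 to 5430 CPM and 4828 to 7283 CPM, while 6 of the 12 had a negative log2 fold change. Among these was Foxl2, a transcription factor that defines granulosa cells, at 148, 165 and 140.4 CPM against 112, 124 and 134 CPM (-0.29, SE 0.10), which lay wholly below wild type and did not pass. Of 14 oocyte markers 4 rose (Gdf9, Bmp15, Oosp1 and Dazl), with sums of 617 to 790 CPM and 772 to 1202 CPM, while 3 of the 14 had a negative log2 fold change. Among these, Sohlh1 was at 3.19, 3.41 and 3.24 CPM against 2.31, 2.58 and 2.29 CPM (-0.46, SE 0.19). It lay wholly below wild type and did not pass. Theca and stroma (1 of 9 rose, Nr2f2, sums of 2006 to 2246 CPM and 2031 to 2977 CPM), leukocytes (0 of 9, 486 to 534 CPM and 348 to 689 CPM) and oviduct (0 of 9 tested, with Mcidas at 0 in every Bnc1+/+ ovary) overlapped. In leukocytes 1 marker was lower and in oviduct 1 was higher at an unadjusted p under 0.05 in edgeR, and DESeq2 called 0 and 1, limma-voom 0 and 0. When single ovaries were left out, Lhcgr, Scarb1, Pecam1, Kdr, Flt1 and Amhr2 passed in all 6 fits and the other markers named as changed in 1 to 4 of them. With the alternatives that kept all ovaries, Star and Ptgfr missed the threshold in a robust edgeR fit, and Hsd3b1 and Tek with library size only. Hsd3b1 also missed it with at least 10 counts in every ovary, and Dazl with limma-voom. Without both ovaries with high oviduct genes, only Lhcgr, Sfrp4, Scarb1, Ptgfr and Flt1 of the changed markers passed. The others, Amhr2, Pecam1 and Kdr included, did not, in a fit where 1.55% of all genes passed. Foxl2 and the oocyte marker Zp3, which define cells of the labelled tissue, were counted in every ovary.

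Set against these markers, the sum of the replication genes overlapped between genotypes relative to 5 of the 7 cell type lists, and did not relative to the corpus luteum and the endothelium. It was 0.381, 0.325 and 0.360 of the granulosa marker sum in Bnc1+/+ and 0.288, 0.387 and 0.338 of it in Bnc1tr/tr ovaries, with overlap. Inha alone averaged 2208 CPM in Bnc1+/+ and 3132 CPM in Bnc1tr/tr ovaries, so the granulosa sum and this ratio lean on that gene. Single granulosa markers differed: Foxl2 lay wholly below and Amhr2 wholly above wild type (log2 fold changes of -0.29 and 0.62). Relative to the oocyte markers the members' sum was 2.32, 2.37 and 2.43 against 1.74, 2.42 and 1.96, also with overlap. Relative to the corpus luteum markers it was 0.0786, 0.0628 and 0.0554 against 0.286, 0.147 and 0.201, without overlap. Relative to the endothelium it was 1.99 to 3.04 against 4.07 to 5.37, also without overlap. The ranges overlapped relative to theca and stroma (0.692 to 0.878 and 0.627 to 1.03), leukocytes (2.97 to 3.78 and 2.71 to 6.03) and oviduct (12.0 to 46.6 and 4.21 to 75.0). In both genotypes the ovary with the lowest sum of replication genes, Bnc1+/+ replicate 7 and Bnc1tr/tr replicate 2, also had the lowest granulosa and oocyte sums of its genotype.

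**Figure D5:**
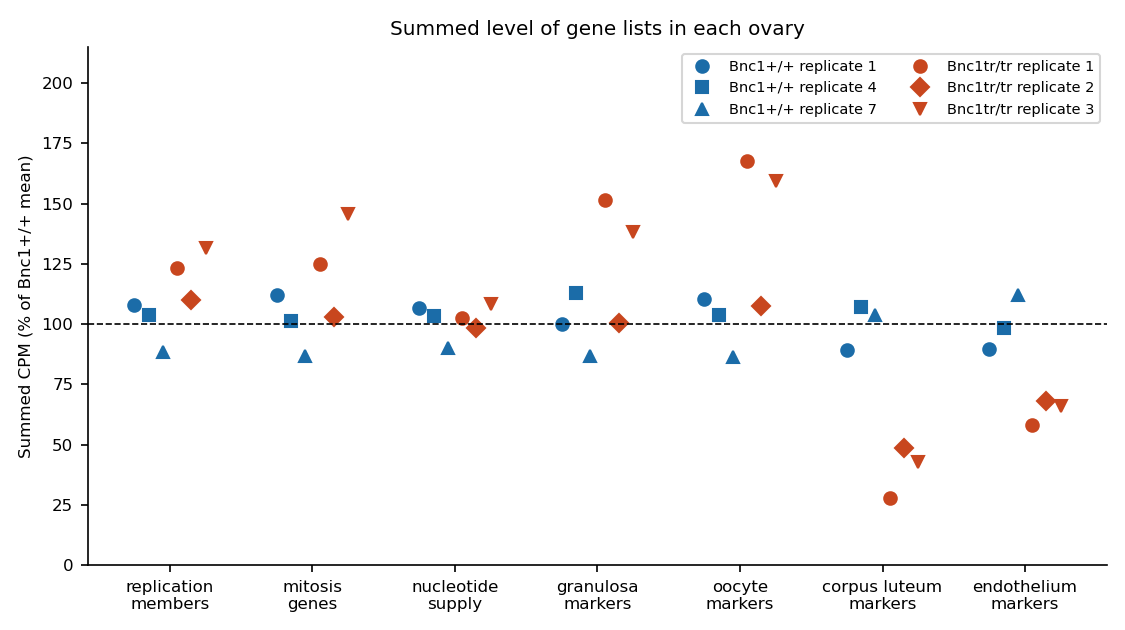
Summed CPM of the 43 replication genes, of mitosis and nucleotide supply genes and of markers of 4 cell types in each ovary, as a percentage of the mean of the 3 Bnc1+/+ ovaries (dashed line at 100), with blue symbols for Bnc1+/+ and red symbols for Bnc1tr/tr. Bnc1+/+ replicate 7 is the lowest wild-type ovary and Bnc1tr/tr replicate 2 the lowest mutant ovary for replication, mitosis, nucleotide supply, granulosa and oocyte genes, and all mutant ovaries lie below all wild-type ovaries for corpus luteum and endothelium markers.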

How the data were processed

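Total RNA of whole ovaries was extracted with TRIzol and single-end libraries were prepared with an Ion Total RNA-Seq Kit v2 and sequenced on an Ion Proton instrument. Raw counts were deposited, that is whole numbers of reads per gene symbol, without normalization. The aligner, counter and annotation are not given in the sources used here, and the submitters' processing notes name the builds mm10 and Sscrofa 10.2 with no role.

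The paper's methods state no test for this count table. Counts were filtered with filterByExpr (minimum count 10), which kept 19423 of 31717 genes with a count, and scaled with TMM. The genotypes were compared by the two-sided quasi-likelihood test of edgeR 4.0.16 in R 4.3.3, adjusting p-values after Benjamini and Hochberg over all genes (threshold 0.05). Standard errors were the log2 fold change divided by the square root of the F statistic. CPM were computed with the TMM library sizes. The pipeline was tested on simulated data. Library totals of 25247770 to 34406296 counts set the counting error, and no 2 ovaries of a genotype were close enough to be the same library. Lengths and positions were those of GRCm38 with GENCODE M21 (longest principal transcript), and promoter windows were those of RefSeq.

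The 43 genes, the other lists and the alternatives were chosen with earlier results of these data known. All 43 were named, with CPM per ovary for the helicase ring, for genes past the threshold and for the largest and smallest fold change of each role, and with further members added after their values were seen. In the other lists, genes past the threshold and the 2 with the largest absolute log2 fold change at a mean of at least 1 CPM were named. Alternatives were DESeq2 size factors, library size only, no filter, at least 10 counts in every ovary, DESeq2 1.42.0, limma-voom 3.58.1, a robust edgeR fit, and leaving out each ovary. Leaving out both ovaries with high oviduct genes was added after seeing the data.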

Additional observations from a re-analysis of the deposited data

How the results depend on the processing

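The median log2 fold change of the 43 replication genes moved by less than the spread between ovaries (SD 0.15) under every alternative, from 0.22 to 0.39 when single ovaries were left out. Members past the threshold numbered 8 with library size only and 7 with DESeq2, 0 to 4 when single ovaries were left out, and 0 without both ovaries with high oviduct genes. Genes of the neighbouring lists past it numbered 19, 21, 1 to 10 and 1 in the same order. Library size alone moved the median of all genes from 0.02 to 0.12 and the share of lower calls among all calls from 59.3% to 35.6%, and the members' median minus that of all genes was 0.29 under both scalings. DESeq2 called 2420 genes in all, against 1372. Members without overlap numbered 23 to 34 when single ovaries were left out, where 37.3% to 43.6% of all genes did not overlap, compared with 30.8% over all ovaries.

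Only members near 0 and not past the threshold changed sign. Rfc5 was at -0.0020 with DESeq2 size factors, -0.0028 without a filter, -0.0020 with DESeq2, -0.0042 with limma-voom and -0.12 without both ovaries with high oviduct genes, where Orc3 was at -0.0068. With library size only, Orc4 was at 0.041 and Rfc2 at 0.066. Leaving out single ovaries gave -0.14 to 0.081 for Rfc5, -0.13 to 0.039 for Orc4, -0.13 to 0.17 for Prim2, -0.024 to 0.14 for Orc3, -0.034 to 0.076 for Rfc1 and -0.096 to 0.016 for Rfc2. Of the single values, 13 gained the threshold and 11 lost it. The cause was not tested. Every member had at least 138 counts in every ovary, which sets the counting error. The paper states that littermates were compared, but the labels used here give no litter, so no paired analysis was possible. The test treated the 6 ovaries as unpaired.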

Other observations

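The genes outside the 43 whose levels followed them most closely were sought over the 6 ovaries, as a description. Among 16710 genes with a mean of at least 1 CPM, the 10 with the highest Pearson correlation to the mean of the members' standardized log2 CPM were Gm5593, Tcl1b1, Spin2c, Mad2l1, Gm5648, Osbpl10, Fbxo5, Ak4, Ccdc41 and LOC101056044, with r from 0.985 to 0.994. The points share libraries and depth, and no p is given. Mad2l1, a protein of the spindle checkpoint, was at 20.6, 21.4 and 15.8 CPM in Bnc1+/+ and at 24.3, 21.1 and 26.9 CPM in Bnc1tr/tr ovaries. Fbxo5, an inhibitor of the ubiquitin ligase that ends mitosis, was at 15.8, 16.2 and 12.7 CPM against 17.9, 15.9 and 19.2 CPM. Spin2c was at 19.0, 16.6 and 11.5 CPM against 27.8, 19.6 and 32.1 CPM. In all 3 genes Bnc1+/+ replicate 7 was the lowest ovary and Bnc1tr/tr replicate 3 the highest. Of the 43 replication genes, 42 were lowest in that wild-type ovary and 27 were highest in that mutant ovary.

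The 15 members with an E2F octamer in their window had a median log2 fold change of 0.365 and the 20 members with a window and no octamer had 0.30. Those with an octamer ran from 0.06 (Orc3) to 0.60 (Cdt1). Whether these medians differ was not tested, and nothing is read from them because the genes were proposed with this contrast in view.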
